A study of Homo sapiens with 41 samples.

Results

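The ZNF genes of chromosome 19 were taken as the protein-coding genes of that chromosome whose symbol is ZNF followed by a number in RefSeq, build hg38 (GRCh38.p14). The rule found 250 genes among 19970 protein-coding genes of chromosomes 1 to 22 and X. The other 1201 protein-coding genes of chromosome 19 served as the comparison, and 267 ZNF genes on other chromosomes were kept as a further set. The rule used names and positions, not measured binding.

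Most ZNF genes of this chromosome encode C2H2 zinc finger proteins, many of which carry a KRAB domain at the amino terminus. The tandem zinc fingers read DNA sequence, and the KRAB domain brings in the co-repressor TRIM28 (KAP1), which in turn brings in the methyltransferase SETDB1 to deposit histone H3 lysine 9 trimethylation. Many of these proteins bind retrotransposons, and the genes arose by repeated tandem duplication, so they lie in clusters. CTCF is a zinc finger protein that halts loop extrusion by cohesin, of which RAD21 is a subunit, and RNA polymerase II (Pol II) transcribes protein-coding genes.

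The cells were T47D, an established human luminal breast carcinoma line, grown without steroids and then without serum before treatment, in every group. Hyperosmotic stress was applied with 110 mM NaCl, per the sample titles and protocol; the series text gives 100 mM. CTCF chromatin immunoprecipitation sequencing (ChIP-seq) covered no stress (3 libraries), 7.5 min (2), 30 min (1) and 1 h (3) of NaCl, and 1 h of NaCl followed by return to isotonic medium, called recovery (1). RAD21 covered no stress, 1 h and recovery (3 each), and Pol II covered 1 h of NaCl (2) and no stress (2). Triptolide, which blocks the initiation of transcription, was given at 500 nM for 2 h beforehand in libraries made once each for CTCF and for RAD21 in unstressed, 1 h and recovery cells. Of these, 12 libraries came from a second submission, and it holds the triptolide libraries, the CTCF recovery library and replicate 3 of each group that has one. Nothing states that replicates were separate cultures, so p-values measure the spread between libraries, which may be technical. In bulk chromatin, binding in fewer cells and weaker binding per cell cannot be told apart.

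The files held peaks, not reads, so read depth is unknown. The lists held 20678 to 59843 CTCF peaks and 3344 to 40969 RAD21 peaks, and the list length moved with condition. Pol II lists held 107396 and 216968 regions at 1 h and 105302 and 88046 without stress. As a check of the label, Pol II regions covered 41.2 and 57.0% of the spans of 11 luminal breast markers at 1 h and 73.7 and 71.7% without stress. The 7 haematopoietic markers stood at 37.9 and 48.4% at 1 h and 12.1 and 8.5% without stress, the 5 fibroblast markers at 11.7 and 13.2% and 12.1 and 5.0%, and the 7 neuronal and muscle markers at 4.1 and 8.0% and 6.6 and 3.0%. The part of any such change in the results was not tested.

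The 250 ZNF genes had a median span of 23.3 kb, against 12.7 kb for the other genes, and ranged up to 488 kb (ZNF536). Merged, the ZNF spans filled 7.11 Mb and the other spans 24.7 Mb. Joining ZNF genes less than 300 kb apart into clusters of at least 5 placed 234 of them in 12 clusters, numbered here along the chromosome, and left 16 outside. The largest were cluster 12 at chr19:57191500-58489533 with 43 ZNF genes, cluster 9 at chr19:51571283-53580269 with 41 and cluster 5 at chr19:20530276-24129968 with 29. Of the 250 spans, 34 overlapped another ZNF span and 12 overlapped another gene, so neighbours can share a peak.

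RefSeq promoters, from 250 bases before to 50 after the start, were matched for 219 ZNF genes and 966 other genes of chromosome 19, and for 15812 genes in all. The ETS pattern CCGGAAGT, the core of sites bound by ETS-family activators, was found on either strand in 45 of the 219 ZNF promoters (20.5%), against 13.8% of promoters of ZNF genes on other chromosomes, 4.45% of the other chromosome 19 promoters and 6.20% of all promoters. A CTCF core pattern, CCA, any 2 bases, AG, any 2 bases and GGC in that order, was found in 3 ZNF promoters (1.37%), against 3.11% of the others and 2.69% of all. The TATA box pattern TATAAA stood in 1.83% of ZNF promoters, against 8.07% of the others and 9.64% of all. The NRF1 pattern GCGCATGC stood in 4.11% against 5.28% and the YY1 pattern AAGATGGC in 6.39% against 5.59%. Patterns were not required to be free of each other, and a match is a description of the letters only.

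The following 5 promoters are given in the direction of transcription, with both the ETS and the CTCF core patterns in capitals. They are the 3 ZNF promoters with a CTCF core and, for contrast, 2 promoters with an ETS pattern but no core whose genes were among the 10 largest Pol II falls.
ZNF587B: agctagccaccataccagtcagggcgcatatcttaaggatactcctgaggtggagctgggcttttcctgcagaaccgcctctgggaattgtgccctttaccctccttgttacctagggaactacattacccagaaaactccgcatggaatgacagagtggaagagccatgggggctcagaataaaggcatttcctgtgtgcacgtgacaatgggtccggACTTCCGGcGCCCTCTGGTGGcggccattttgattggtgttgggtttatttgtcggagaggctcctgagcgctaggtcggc
ZNF814: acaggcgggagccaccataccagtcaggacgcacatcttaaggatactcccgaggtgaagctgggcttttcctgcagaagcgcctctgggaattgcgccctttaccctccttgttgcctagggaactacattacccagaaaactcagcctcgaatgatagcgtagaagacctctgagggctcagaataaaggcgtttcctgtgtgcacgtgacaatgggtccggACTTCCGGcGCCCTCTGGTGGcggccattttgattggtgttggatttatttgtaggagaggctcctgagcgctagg
ZNF460: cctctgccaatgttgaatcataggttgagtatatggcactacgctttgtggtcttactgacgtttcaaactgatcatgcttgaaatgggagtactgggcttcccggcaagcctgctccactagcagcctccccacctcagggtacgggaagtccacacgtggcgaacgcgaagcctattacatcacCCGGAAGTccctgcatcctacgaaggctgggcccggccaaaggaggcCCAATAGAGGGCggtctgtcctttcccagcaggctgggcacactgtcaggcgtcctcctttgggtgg
ZNF776: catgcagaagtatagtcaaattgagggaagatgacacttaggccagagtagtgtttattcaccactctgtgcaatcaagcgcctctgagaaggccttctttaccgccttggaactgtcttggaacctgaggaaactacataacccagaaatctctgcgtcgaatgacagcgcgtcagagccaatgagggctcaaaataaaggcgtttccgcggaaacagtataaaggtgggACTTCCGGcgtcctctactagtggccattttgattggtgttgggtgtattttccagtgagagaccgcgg
ZNF324: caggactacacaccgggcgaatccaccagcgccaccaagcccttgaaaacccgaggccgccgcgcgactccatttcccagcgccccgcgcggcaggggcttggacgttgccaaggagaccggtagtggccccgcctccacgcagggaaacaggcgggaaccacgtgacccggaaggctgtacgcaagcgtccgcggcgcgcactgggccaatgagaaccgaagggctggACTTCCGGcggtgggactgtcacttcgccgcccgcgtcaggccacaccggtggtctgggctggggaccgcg
ZNF587B and ZNF814 lie at chr19:57830049-57830348 (plus strand) and chr19:57888988-57889287 (minus strand), ZNF460 at chr19:57279732-57280031, ZNF776 at chr19:57746565-57746864 and ZNF324 at chr19:58466830-58467129 (plus strand, all 3). The ZNF587B and ZNF814 promoters shared an identical stretch of 73 bases that holds both patterns, the ETS pattern ending 1 base before the CTCF core. Reads from such copies can be hard to place, and how multiply mapped reads were treated is not given in the sources used here. A CTCF peak overlapped the promoter in 9 of 13 lists for ZNF587B, 7 for ZNF814, 6 for ZNF460, 3 for ZNF324 and 0 for ZNF776. Of the 216 ZNF promoters without a CTCF core, 45 (20.8%) overlapped a CTCF peak in at least 1 list, so most promoters with CTCF peaks did not hold these letters.

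CTCF peaks were sparser at ZNF genes than at the other genes of the chromosome in every library, and at gene ends they were found at the start far more than at the far end. Across the 13 CTCF libraries, the share of genes with a peak within 1 kb of either end was lower for ZNF genes than for other genes in 13 of 13. The mean log2 ratio of the shares was -0.96 ± 0.43 (SD, n = 13, exact 2-sided sign-change permutation test, p = 0.000244, the smallest it can give, adjusted p = 0.000651 over 8 tests). Peak density inside spans had a mean log2 ratio of -1.68 ± 0.30, with ZNF genes lower in 13 of 13 (the same exact permutation test, p = 0.000244). Density counts peaks per Mb of whole spans, ends included, and ZNF spans were longer, so its size cannot be set against that of the gene share. Libraries share cells, antibody and genes, so the 13 are not independent samples of the genome.

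Splitting the ends by strand showed a larger gap at the far end than at the start. At the start site the log2 ratio of ZNF to other genes was -0.42 ± 0.36 (n = 13, exact permutation p = 0.000732, lower in 12 of 13). At the far end it was -3.01 ± 0.40 (exact permutation p = 0.000244, lower in 13 of 13). In the 3 unstressed libraries CTCF stood at 25.6, 11.4 and 24.2% of ZNF start sites, against 23.7, 11.9 and 28.1% of other start sites, and replicate 1 was the 1 library of 13 in which ZNF start sites were higher. At far ends it stood at 2.28, 1.37 and 2.28% for ZNF genes, against 13.6, 9.21 and 14.2% for other genes. Peaks also lay inside ZNF genes, over 1 kb from both ends, and in unstressed cells 40, 31 and 23 of 218 ZNF genes had such a CTCF peak, against 56, 25 and 53 of 219 with one at the start. The inner shares were 18.3, 14.2 and 10.6% for ZNF genes, against 39.8, 26.7 and 39.3% for other genes, so inner peaks were sparser too. Genes with a start peak outnumbered those with an inner peak in 7 of 13 CTCF libraries, equalled them in 1 and were fewer in 5. For RAD21 the far end again held the larger gap. Its log2 ratio over 12 libraries was -0.19 ± 0.78 at start sites (exact permutation p = 0.412, lower in 7 of 12) and -2.36 ± 0.42 at far ends (p = 0.000488, exact permutation, lower in 12 of 12). Over either end it was -0.65 ± 0.58 (exact permutation p = 0.00391, lower in 11 of 12), and inside spans -1.40 ± 0.53 (exact permutation p = 0.000488, lower in 12 of 12).

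**Figure D1:**
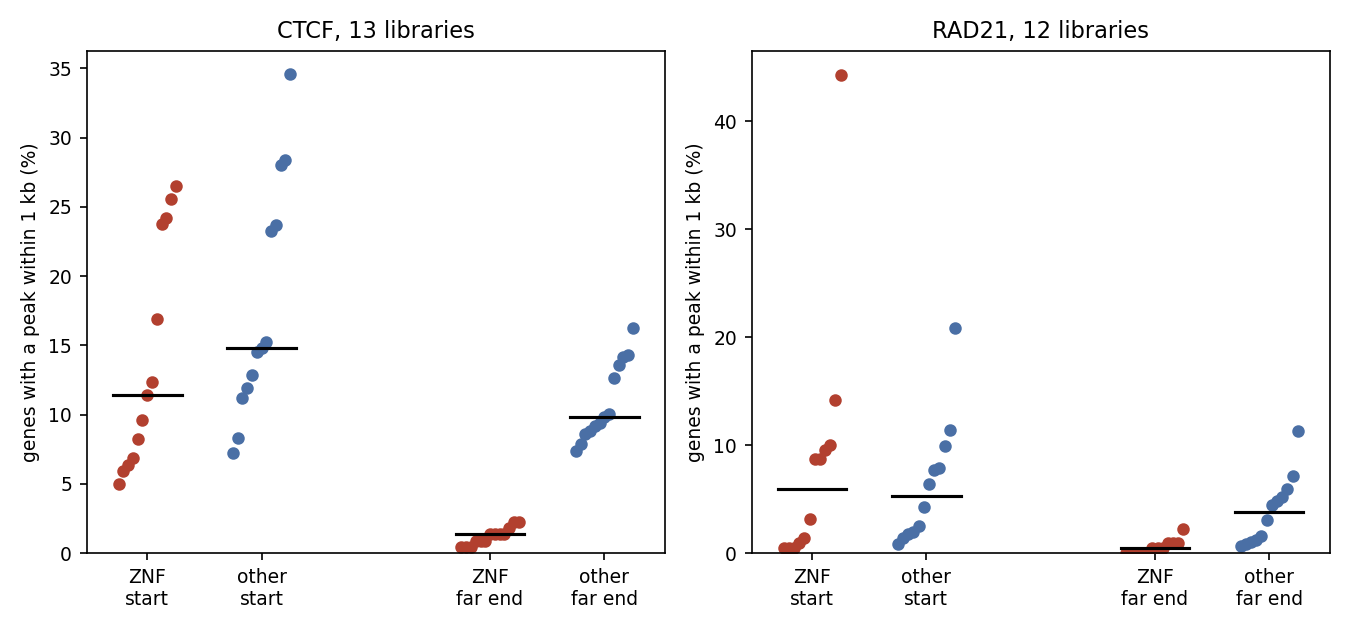
Share of genes (%) with a CTCF peak (left, 13 libraries) or RAD21 peak (right, 12 libraries) within 1 kb of the start site or far end, for 219 ZNF genes and 966 other genes of chromosome 19. Each point is a library and the bar the median. ZNF far ends stay at or below 2.28% in every library.

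CTCF peaks were called at fewer ZNF genes in NaCl, though the groups overlapped. Without stress, 27.2, 12 and 21.6% of ZNF genes had a CTCF peak at an end, at 7.5 min 10.8 and 6.4%, at 30 min 5.2% and at 1 h 13.2, 7.6 and 6.0%. The counts behind these shares carry exact Clopper-Pearson 95% intervals of 21.8 to 33.2% for unstressed replicate 1 and 3.40 to 9.70% for 1 h replicate 3, which cover counting error over genes only. Replicate 2 without stress, at 12%, lay below replicate 1 at 1 h, so the groups overlapped. Within each replicate number the 1 h share was the lower one (3 pairs, exact sign-change permutation p = 0.25, the smallest possible). The 1 h mean was 8.93 ± 3.78% and the no stress mean 20.3 ± 7.69% (SD, n = 3 each, exact 2-sided permutation p = 0.2, smallest possible 0.1, adjusted p = 0.325 over 13 tests). Other chromosome 19 genes stood at 21.8, 18.1 and 21.6% at 1 h and at 32.2, 18.7 and 35.6% without stress.

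CTCF density inside ZNF spans did not overlap between the groups. It was 8.44, 6.19 and 5.21 peaks per Mb at 1 h and 18.7, 10.1 and 13.8 peaks per Mb without stress. On the log2 scale the difference was -1.08 (n = 3 each, exact permutation p = 0.1, the smallest possible, adjusted p = 0.325). Relative to other chromosome 19 genes the density differed by -0.52 on the log2 scale, again without overlap (exact permutation p = 0.1, n = 3 each). The length of the lists moved with these values. When every list was cut to its strongest 22018 peaks by deposited fold, the end share was 4.93% at 1 h and 6.13% without stress, a difference of -1.2 points against -11.3 points with whole lists, and the density difference was -0.09. The relative density difference at equal list length was -0.41 (exact permutation p = 0.1, n = 3 each). With only the 2 libraries per group of the first submission, the end share difference was -9.2 points and the relative density difference -0.51.

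**Figure D2:**
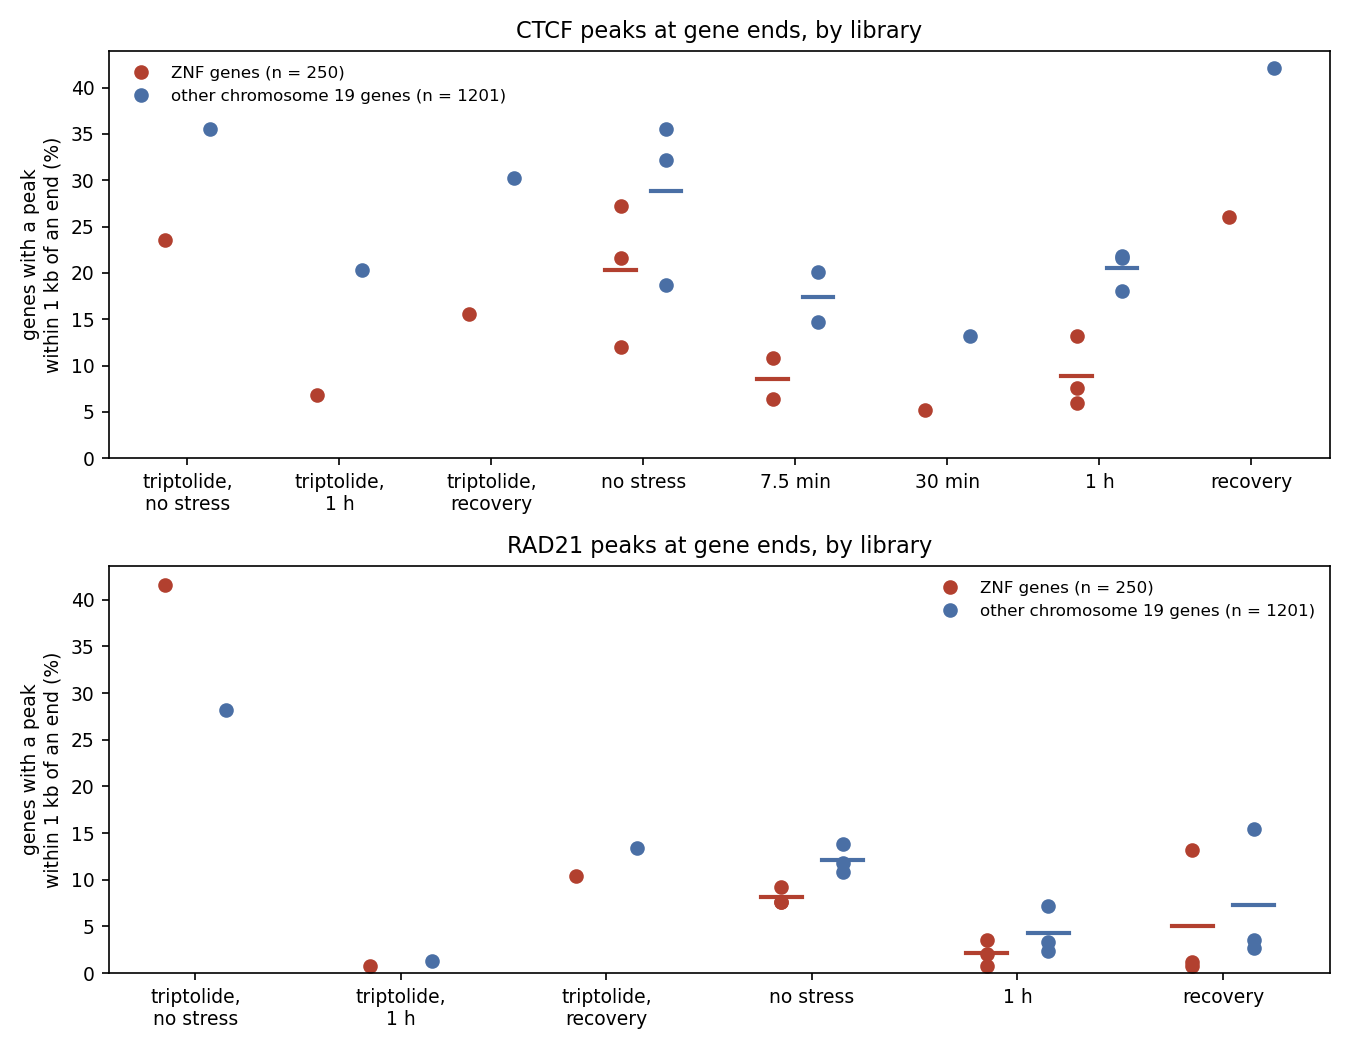
Share (%) of ZNF genes and other chromosome 19 genes with a peak within 1 kb of either end, per library (points) with group means (bars) where a group has 2 or more. CTCF stands at 6.0 to 13.2% of ZNF genes at 1 h and at 12 to 27.2% without stress, and RAD21 stands at 41.6% of ZNF genes in the unstressed triptolide library.

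Few ZNF genes held CTCF throughout. Of the 250, 158 (63.2%) had no CTCF peak at an end in any of the 13 lists, against 45.8% of all genes, and 8 had one in every list, against 9.54% of all genes. In all 3 unstressed lists 23 ZNF genes had such a peak, against 17.3% of all genes, and 11 had one in all unstressed and all 1 h lists, against 12.8%. Losing it in all 1 h lists was called for 2 ZNF genes, ZNF544 and ZNF525, against 0.661% of all genes, and gaining it for 0, against 0.00501%. The number lost turned on single libraries, being 18 without unstressed replicate 2. At 7.5 min, 7 ZNF genes had lost the peak of both unstressed libraries of the first submission, against 1.9% of all genes, and 15 had kept it, against 13.5%.

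The 8 genes with CTCF at an end in all 13 lists were ZNF20, ZNF491, ZNF554, ZNF256, ZNF616, ZNF582, ZNF653 and ZNF329. Folds here are the authors' deposited peak folds, compared only within a list, and percentiles are ranks by fold in a list. ZNF20 (chr19:12131350-12140350, cluster 3) never ranked below percentile 46.0, and its summit lay 945 to 998 bases upstream of the start. ZNF554 (chr19:2819868-2836735) had its summit 21 to 110 bases upstream. ZNF582, known for promoter methylation in cervical cancer, had its summit 127 to 288 bases downstream. In ZNF653 the summit lay 634 to 668 bases from the far end, away from the start site. ZNF329 (chr19:58126248-58155104) had its summit 132 to 161 bases from the gene's outer end, which is at -4476 to -4447 bases from the start in the promoter table.

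ZNF544 (chr19:58228914-58277455, cluster 12) was called as losing CTCF and was among the 10 largest Pol II falls. Its CTCF peak, 538 to 568 bases downstream of the start, was called in 6 of 13 lists, namely the 3 unstressed lists, the recovery list and the unstressed and recovery triptolide lists. It was in none of the 7.5 min, 30 min or 1 h lists. Pol II regions covered 6.83 and 2.86% of its span at 1 h and 94.3 and 91.4% without stress, with no overlap. ZNF525 (chr19:53365705-53386590) had its CTCF peak 407 to 482 bases upstream of the start in the same 6 lists, with deposited folds of 9.21, 6.52 and 5.27 without stress. Its Pol II coverage was low, at 0 and 2.67% at 1 h and 7.08 and 11.8% without stress.

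RAD21 at ZNF ends was scarcer under stress, without overlap of the groups. The share of ZNF genes with a peak was 0.8, 3.6 and 2.0% at 1 h and 9.2, 7.6 and 7.6% without stress. The means were 2.13 ± 1.40% and 8.13 ± 0.92% (SD, n = 3 each, 1 h first, exact permutation p = 0.1, the smallest possible, adjusted p = 0.325). Density inside spans was 0.42, 2.11 and 0.99 peaks per Mb at 1 h, against 5.21, 4.22 and 5.77 without stress, a log2 difference of -2.29 (exact permutation p = 0.1, n = 3 each). The other genes stood at 2.41, 7.16 and 3.33% at 1 h and at 11.8, 13.8 and 10.8% without stress. Relative to them the ZNF end share differed by -0.40 on the log2 scale with overlap (exact permutation p = 0.2, n = 3 each). Cut to the strongest 4761 peaks, the ZNF share was 1.20% at 1 h and 1.33% without stress. Shares this low rest on very few genes per library, so this cut could hardly show a difference.

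RAD21 after recovery was split by library. ZNF genes with a peak at an end were 0.8, 13.2 and 1.2% in recovery, against 0.8, 3.6 and 2.0% at 1 h. Replicate 3 of recovery carries a pre-treatment tag of 500 nM triptolide, against its title. Replicate 2 of recovery, with 20400 peaks, stood alone, and without it the recovery mean was 1.00%. The difference over all 3 was 2.93 points (n = 3 each, exact permutation p = 0.9), and -1.13 points without that library. Recovery did not differ detectably from 1 h in density either (exact permutation p = 0.7, n = 3 each).

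RAD21 stood at an end in all 3 unstressed lists at 7 ZNF genes, against 9.39% of all genes, namely ZNF329, ZNF616, ZNF491, ZNF20, ZNF763, ZNF737 and ZNF653. All but ZNF763 and ZNF737 were among the 8 genes with CTCF in all lists, and ZNF763 had CTCF in 12 of 13. At ZNF329 alone a RAD21 peak was called in all 12 lists, as in 0.856% of all genes, 69 to 123 bases from the outer end, and it ranked between percentiles 46.2 and 98.7. At ZNF737 (chr19:20530276-20565781) RAD21 was called in 7 lists and CTCF in 6. RAD21 was kept in all 1 h lists at 2 ZNF genes, against 1.87% of all genes, lost in all at 0, against 3.69%, and gained at 0, against 0.01%. Loss at 1 h followed by return in all recovery lists was called at 0 ZNF genes, against 0.361% of all genes, and 143 ZNF genes (57.2%) had no RAD21 peak at an end in any list, against 61.1% of all genes.

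The largest RAD21 value came with triptolide. In unstressed triptolide cells 104 of the 250 ZNF genes (41.6%, exact 95% interval 35.4 to 48.0%) had a RAD21 peak at an end, against 7.6% in the untreated library of the same submission. Other chromosome 19 genes stood at 28.1% with triptolide and 10.8% without, and all genes at 35.6% and 13.5%. ZNF genes of other chromosomes stood at 46.4% with triptolide. In this 1 library of 12, ZNF genes of chromosome 19 exceeded the other genes of the chromosome. That excess went with the length of the list. The log2 ratio of ZNF to other genes was 0.56 with the whole list and 0.01 with its strongest 24931 peaks. At gene ends the peaks sat at the start, with 44.3% of ZNF start sites and 2.28% of far ends, against 20.8% and 11.3% for other genes. There is 1 triptolide library per state, so no test was made. The pre-treatment tag of this library reads untreated, against its title, so that by tags no comparison with triptolide could be made.

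Of the 250 ZNF genes, 69 (27.6%) had a RAD21 peak with triptolide and in no unstressed library, against 13.5% of all genes. Such a peak was called at 12.2% of other chromosome 19 genes and at 21.7% of ZNF genes of other chromosomes. The 69 genes held 65 distinct peaks, since neighbours shared some. Of the 69, 20 (29.0%) overlapped a CTCF peak of the matching triptolide library, against 49.3% of the 146 other chromosome 19 genes with a new peak. The ZNF ones had a median at percentile 16.5 of deposited fold in a list of 40969 peaks. Cut to the strongest 24931, as many as in the untreated library, the ZNF share was 12.8% with triptolide and 7.6% without, and the new genes numbered 11. CTCF stood at 23.6% of ZNF genes with triptolide and 21.6% without, and was new at 2 ZNF genes, against 1.55% of all genes.

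The ZNF genes with a new RAD21 peak had a higher mean Pol II coverage in unstressed cells, at 43.6 and 35.4%, against 26.9 and 21.6% for the 146 ZNF genes without a RAD21 peak in the triptolide library. Other chromosome 19 genes showed the same order, at 51.4 and 49.8% with a new peak, against 28.3 and 26.1% without a peak. The highest-ranked were ZNF284 (percentile 59.7), ZNF574 (57.1), ZNF675 (49.9), whose protein inhibits TRAF6 signalling, ZNF544 (49.7), ZNF221 (49.5) and ZNF571 (48.3). At 1 h with triptolide 0 of the 69 had a RAD21 peak, and in recovery with triptolide 10 had one. By ETS pattern, a RAD21 peak was called with triptolide at 46.7% of 45 ZNF genes with the letters and 40.2% of 174 without. At 1 h of NaCl the share was 0.8% of ZNF genes with triptolide and 2.0% without. In recovery the share was 10.4% with triptolide and 1.2% without, and 2.0% against 1.2% with both lists cut to 6492 peaks.

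Pol II coverage of ZNF spans was lower after 1 h of NaCl in both libraries. Coverage is the percent of a span under deposited Pol II regions, and its mean over the 250 genes was 14.05 and 10.5% at 1 h, against 34.0 and 27.0% without stress. The 1 h libraries lay below both unstressed ones, with means of 12.3 ± 2.49% and 30.5 ± 5.01% (SD, n = 2 each, 1 h first, exact permutation p = 0.33, the smallest possible). Other chromosome 19 genes stood at 28.4 and 26.0% at 1 h and 33.9 and 31.5% without stress. ZNF genes elsewhere stood at 10.4 and 13.7% against 30.5 and 28.6%, and all genes at 15.8 and 17.0% against 28.2 and 27.4%. On the log2 scale the means differed by -1.31 for ZNF genes, -0.27 for other chromosome 19 genes and -0.76 for all genes. The share of the chromosome's Pol II coverage inside ZNF spans was 6.80 and 6.22% at 1 h and 15.8 and 14.7% without stress.

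The gap between ZNF and other genes was -14.3 and -15.5 points at 1 h and 0.13 and -4.56 points without stress, a difference of -12.7 points without overlap (n = 2 each, exact permutation p = 0.33). It remained in spans of 10 to 50 kb, where it was -12.9 points. Counting only regions with a deposited -log10 q of at least 1.3, ZNF genes stood at 4.498 and 1.60% at 1 h and 13.9 and 12.6% without stress, and other genes at 10.3 and 4.38% and 21.4 and 20.6%. The point gap then turned round to 3.51, while the log2 differences were -2.12 for ZNF genes, -1.52 for other chromosome 19 genes and -2.68 for all genes. That limit drops 80.05 and 92.4% of 1 h regions and 50.0 and 48.5% of unstressed ones. On chromosome 19, 55.7% of regions past it and 57.1% of those below it in unstressed replicate 1 overlapped a region of replicate 2, and 69.6% and 65.4% of those of replicate 2 overlapped one of replicate 1. The 1 h regions recurred less, at 47.5% and 46.7% for replicate 1 and 36.5% and 40.3% for replicate 2.

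Both 1 h libraries lay below both unstressed libraries at 137 ZNF genes (54.8%), against 35.2% of all genes, 33.4% of other chromosome 19 genes and 48.3% of ZNF genes elsewhere. Both lay above at 22 (8.8%), against 16.1% of all genes. With the stricter regions the 137 became 64 (25.6%), near the 28.7% of all genes, and 48 were in both counts. The stricter regions gave 8 ZNF genes higher, against 0.971% of all genes. In limma's moderated test across 19970 genes with Benjamini-Hochberg adjustment, 22 ZNF genes (8.80%) passed an adjusted p of 0.05 with lower coverage, close to the 7.7% of all genes, and 4 with higher, against 1.96%. Leaving out either unstressed library took both of these counts to 0.

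**Figure D3:**
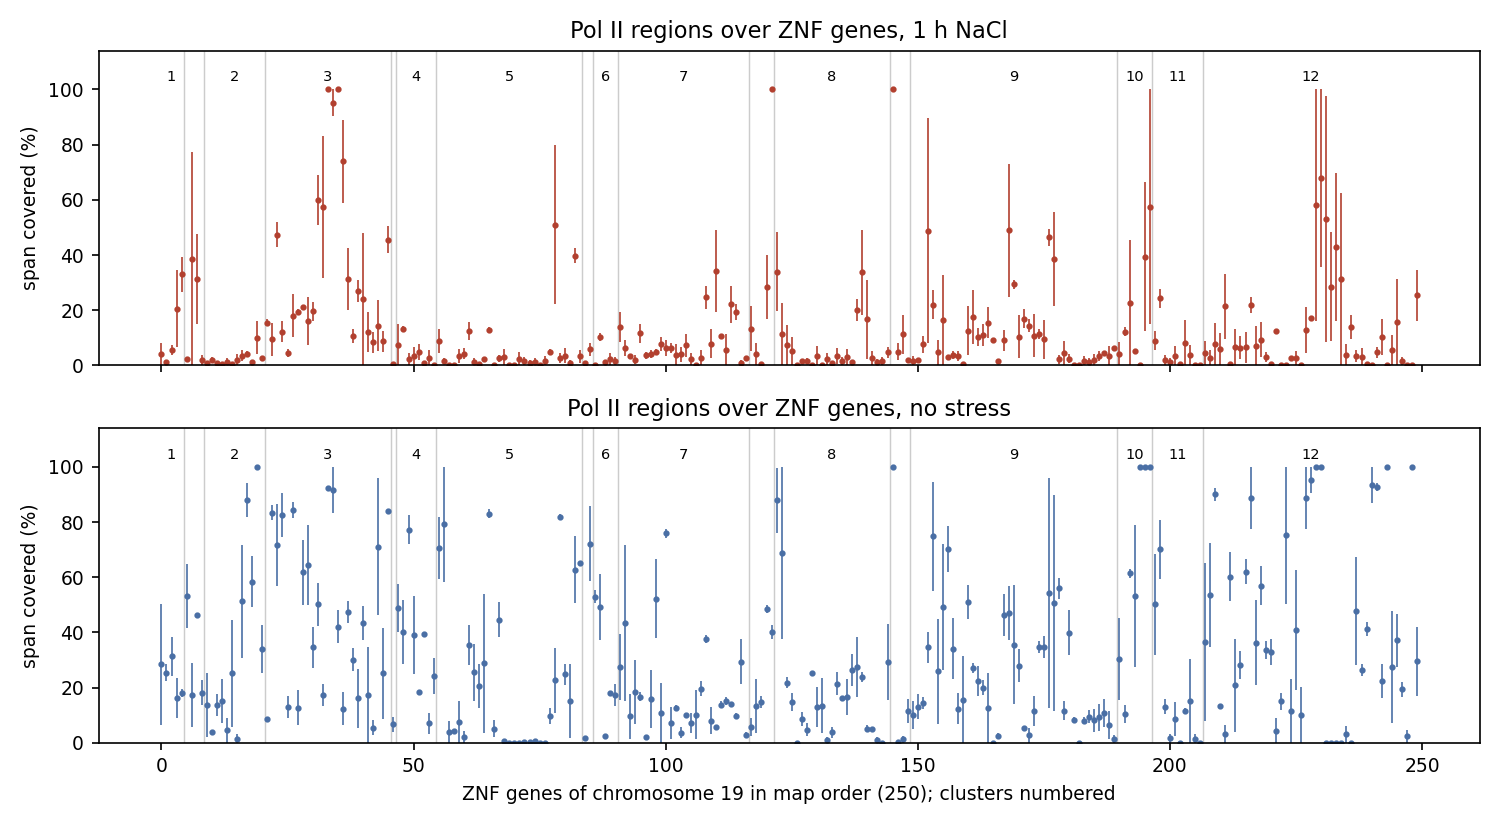
Percent of the span under Pol II regions for each of the 250 ZNF genes in map order at 1 h (upper) and without stress (lower). Points are means of 2 libraries, lines join them, and grey lines bound the 12 numbered clusters. At 1 h most genes lie near zero, with cluster 3 and a group in cluster 12 standing out.

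The 10 largest falls without overlap were ZNF324, ZNF497, ZNF784, ZNF274, ZNF562, ZNF544, ZNF121, ZNF460, ZNF91 and ZNF776, all passing limma's test (adjusted p of 0.00422 to 0.0314). ZNF324 (chr19:58467080-58475436), ZNF497 and ZNF784 had 0% of the span covered in both 1 h libraries and 100% in both unstressed ones. ZNF274, which recruits SETDB1 to the ends of other ZNF genes, was at 0 and 0.62% at 1 h and 100 and 86.8% without stress. ZNF91, a repressor of SVA retrotransposons, was at 0.89 and 4.48% at 1 h and 82.75 and 80.8% without stress. Its difference was -79.1 points (SE 3.495, limma adjusted p = 0.0102). ZNF121 was at 5.05 and 3.22%, against 94.2 and 81.9%, and ZNF776 at 16.4 and 17.8%, against 90.4 and 100%. Of the 10 promoters, 4 held the ETS pattern, in ZNF324, ZNF274, ZNF460 and ZNF776, beside 20.5% of ZNF promoters as a whole and 3 of the 10 genes with the largest positive differences (ZNF587B, ZNF814 and ZNF587).

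The 10 largest positive differences without overlap were in ZNF136, ZNF526, ZNF625, ZNF587B, ZNF814, ZNF878, ZNF587, ZNF569, ZNF304 and ZNF77. ZNF526 (chr19:42220312-42228201, outside clusters) was covered fully in both 1 h libraries and at 42.6 and 37.6% without stress (limma adjusted p = 0.00923). ZNF625 was at 100% in both 1 h libraries and at 48.1 and 36.2% without stress (limma adjusted p = 0.0325). The other 8 did not pass limma's test. ZNF587B was at 97.6 and 8.59% at 1 h and listed at 0 in both unstressed libraries, ZNF814 at 69.8 and 16.0% with 0 unstressed, and ZNF587, whose protein represses HERV-K elements, at 48.3 and 8.79% with 0 unstressed. These 3 lie side by side in cluster 12. Higher coverage without overlap was seen at 22 ZNF genes (8.8%), against 16.1% of all genes. Of the 22, 13 had a higher ZNF gene just before or after them in map order. Among the 13 were ZNF878, ZNF844, ZNF625 and ZNF136 in cluster 3. Also counted were ZNF541 and ZNF114, which lie outside clusters, with ZNF541 at only 1.85 and 8.16% at 1 h. How many such neighbours to expect was not worked out.

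Coverage was lower at 1 h along the whole length of ZNF genes. In 216 ZNF genes the first 10% of the span was covered at 26.0 and 21.1% at 1 h and 55.1 and 51.9% without stress. The last 10% was at 12.4 and 9.71% at 1 h and 43.8 and 39.8% without stress. In part 5 of 10 it was at 12.2 and 9.11% at 1 h and 28.6 and 21.4% without stress. Coverage thus climbed from mid-gene to the far end in unstressed ZNF genes and hardly at 1 h. In 847 other genes the first 10% was at 38.7 and 35.6% at 1 h against 46.8 and 46.3% without stress. Their part 5 was at 26.6 and 22.9% against 28.7 and 24.6%, and the last 10% at 28.4 and 24.2% against 39.6 and 35.9%. The other genes therefore also climbed to the far end without stress and hardly at 1 h, so this was not particular to ZNF genes.

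**Figure D4:**
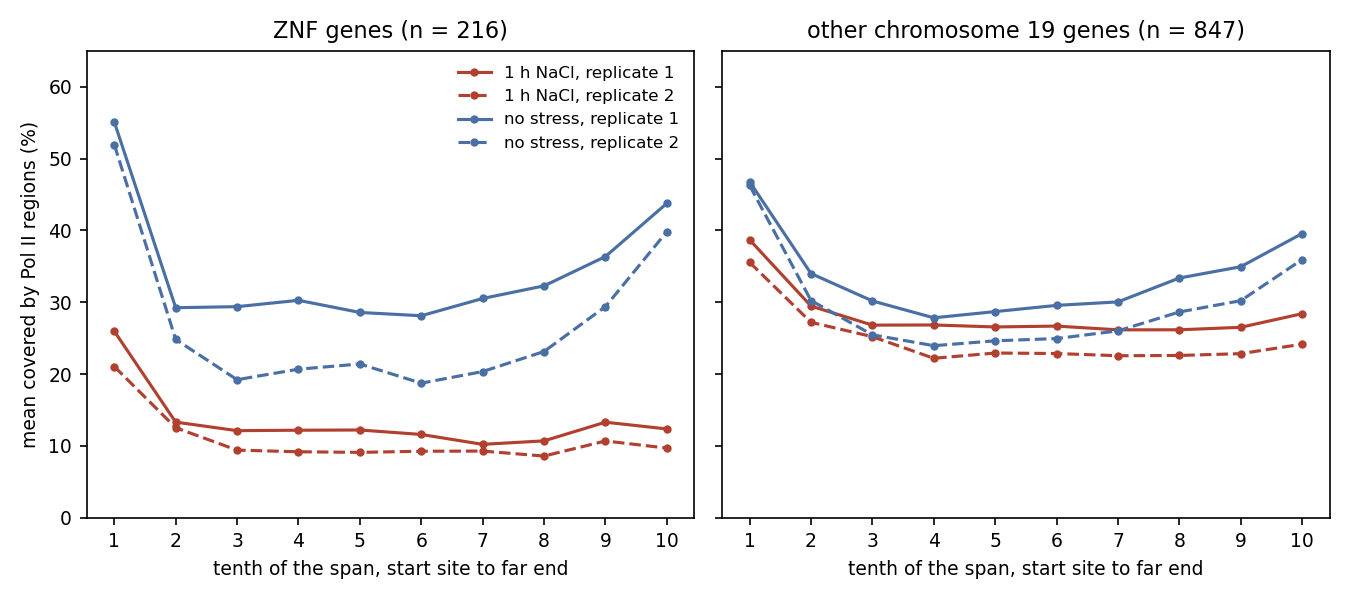
Mean percent under Pol II regions in 10 equal parts of the span, from the start site to the far end, for 216 ZNF genes (left) and 847 other chromosome 19 genes (right), one line per library. ZNF genes at 1 h lie below both unstressed lines in each of the 10 parts, with the last at 12.4 and 9.71% against 43.8 and 39.8%.

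Pol II coverage was also measured outside genes. Between the genes of the clusters (5.63 Mb), Pol II regions covered 12.1 and 9.68% at 1 h and 17.6 and 16.7% without stress. Between genes elsewhere on the chromosome (21.3 Mb) they covered 15.9 and 16.1% at 1 h and 12.5 and 11.6% without stress. With the stricter regions both were lower at 1 h, at 3.51 and 1.93% against 7.87 and 8.53% in clusters and 5.41 and 2.76% against 7.63 and 7.10% elsewhere.

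The size of the difference varied from cluster to cluster, with both 1 h means below both unstressed means in all 12. Cluster 2 (chr19:9140397-9786160, 12 genes from ZNF317 to ZNF846) averaged 2.47% at 1 h and 34.1% without stress, and 10 of its genes lay lower. Cluster 4 (8 genes) averaged 4.37% at 1 h and 36.8% without stress, with 7 lower. Cluster 3 (chr19:11483429-12633834, 25 genes) kept the most, at 35.7 and 32.4% at 1 h and 52.6 and 40.4% without stress, with 12 lower and 5 higher. Cluster 10 was the best covered without stress, at 70.7 and 59.4%, and its 1 h libraries disagreed, at 34.2 and 6.19%. Cluster 3 was also among the densest in CTCF, with 11.3 to 22.6 peaks per Mb at 1 h and 24.3 to 42.6 without stress. Cluster 10 was denser, at 29.6 to 47.3 and 35.5 to 76.9, yet had the largest Pol II difference, -44.8 points. Cluster 1 was denser on average, at 26.6 at 1 h and 37.3 without stress, with Pol II at 12.8 and 23.9%. A link between CTCF density and Pol II coverage was not tested.

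**Figure D5:**
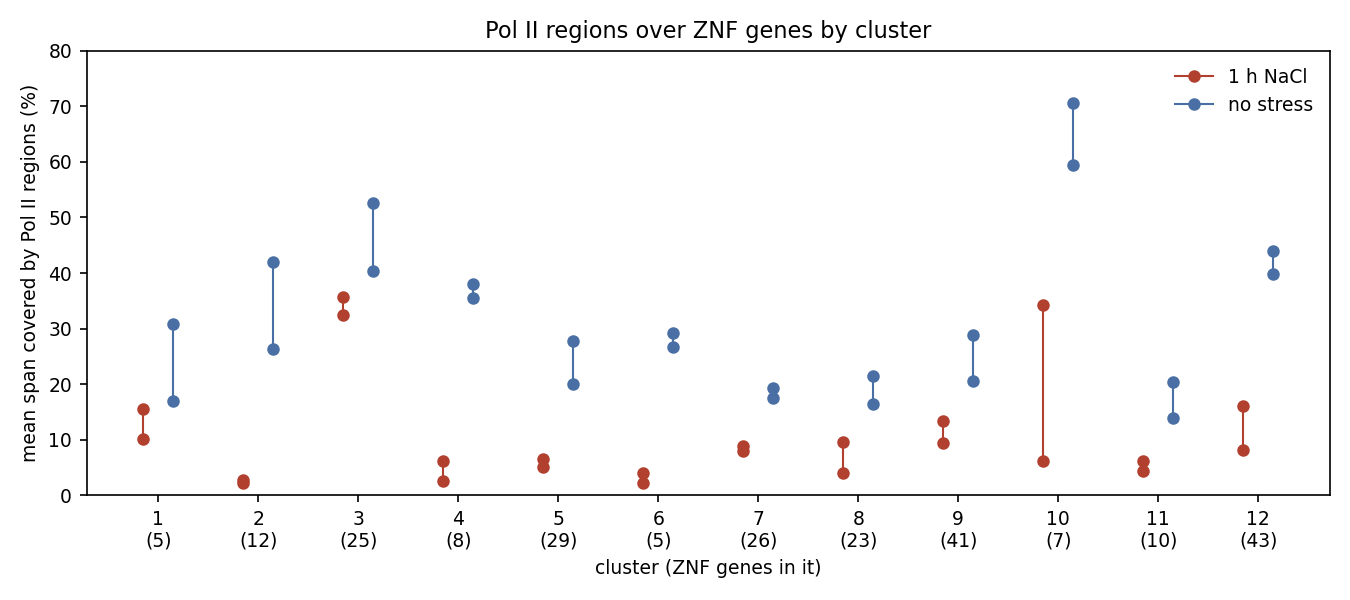
Mean percent of the span under Pol II regions for the ZNF genes of each cluster (number of genes in brackets), with the 2 libraries of each condition joined by a line. Every cluster lies lower at 1 h. The 1 h means run from 2.47% in cluster 2 (34.1% without stress) to 34.1% in cluster 3 (46.5% without stress). The differences run from -10.0 points in cluster 7 to -44.8 points in cluster 10.

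Without stress, 9 ZNF genes were covered completely in both libraries, among them ZNF296, ZNF324, ZNF497, ZNF552 and ZNF562. At 1 h ZNF296 (chr19:45071500-45076478, outside clusters) kept 100% in both, ZNF552 stood at 100 and 35.7% and ZNF562 at 16.0 and 3.96%. At the other extreme ZNF229, ZNF256, ZNF257, ZNF404 and ZNF417 were listed at 0 in both unstressed libraries, as 15 ZNF genes were in all. ZNF417, a close relative of ZNF587, stood at 62.5 and 0% at 1 h, so its 2 libraries disagreed. ZNF256 had 9.50 and 18.4% at 1 h with CTCF at its promoter in all 13 lists, 113 to 174 bases upstream of the start.

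Genes that act with KRAB zinc finger proteins were also less covered at 1 h. Among 19 co-repressor and H3K9 methylation genes, Pol II coverage was 14.6 and 18.4% at 1 h and 53.7 and 53.3% without stress. Of these, 13 lay lower without overlap, against 35.2% of all genes, and 0 higher, against 16.1% of all genes. In limma's test 4 of them passed as lower, against 7.7% of all genes. Other tandem families of chromosome 19, such as kallikreins, olfactory receptors and SIGLEC genes, were mostly little covered without stress. Over 120 such genes the mean was 7.2 and 7.4% at 1 h and 4.7 and 4.5% without stress, with 82 listed at 0 in both unstressed libraries. The 6 galectin genes stood apart, at 47.3 and 43.4% at 1 h and 5.4 and 0.9% without stress. Of the 120, 12 (10%) lay lower without overlap, against 35.2% of all genes, and 22 (18.3%) higher, near the 16.1% of all genes.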

How the data were processed

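ChIP-seq of CTCF, RAD21 and Pol II in T47D cells gave 29 peak lists from 41 samples; the 12 inputs have no list here. Per the submitters' processing notes, cutadapt, Bowtie2 version 2.2.6, MACS2, DiffBind version 2.4.6, DESeq2, HOMER and the build hg38 were used; what each tool did, the calling threshold and the control are not given. The authors' lists give each peak a score, a fold enrichment (ratio), a −log10 p and a −log10 q, deposited per library; these served only to rank and filter peaks within a list.

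Samples were grouped by title. The pre-treatment tag contradicts the title in 6 of 12 libraries of the second submission. The unstressed and 1 h triptolide libraries of CTCF and RAD21 are tagged untreated. The CTCF recovery library and RAD21 recovery replicate 3, used here as without triptolide, are tagged 500 nM triptolide. The members and gene lists were chosen with earlier results of these data known, and the clusters after seeing the positions. Named genes are those with CTCF at an end in all 13 lists, RAD21 in all unstressed lists, peaks lost or gained at 1 h, the 10 largest Pol II falls and rises without overlap, and the 5 highest and lowest unstressed spans. Protein sequences were not used here, so zinc fingers were not counted.

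A gene had a peak at an end when one lay within 1 kb of either end. Ratios of shares added 0.5 to counts. Pol II coverage was fitted with limma 3.58.1 in R 4.3.3, with Benjamini-Hochberg adjustment over 19970 genes, and the fit was tested on simulated data. Other tests were exact permutations in Python 3.11.15 (scipy 1.17.1, pandas 2.3.3, numpy 2.4.6), and figures used matplotlib 3.10.9. Same-numbered CTCF libraries deviated together (r = 0.13, 0.38 and 0.34 across sites), a pairing resting on title numbers and, for replicate 3, on the shared submission. Alternatives were the window, a −log10 q limit, equal list lengths, summits, other gene sets, span trimming, log scale, a coverage minimum, the replicate block and leaving out libraries.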

Additional observations from a re-analysis of the deposited data

Results flagged for a closer look

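The change of the RAD21 gene-end share with triptolide ran in opposite directions between states, and this difference was not tested, since there is 1 triptolide library per state. In unstressed cells the share of ZNF genes was 34 points higher with triptolide (41.6%) than without (7.6%), and at 1 h of NaCl it was 1.2 points lower with triptolide (0.8% against 2.0%), written as -1.2. That 1 h value rests on 2 against 5 genes, and in recovery the share was 9.2 points higher with triptolide (10.4% against 1.2%), as in unstressed cells. For CTCF, the share was 2 points higher with triptolide in unstressed cells (23.6% against 21.6%) and 10.4 points lower in recovery (15.6% against 26.0%), written as -10.4. With lists of equal length the RAD21 differences were 5.2 points in unstressed cells, 0 at 1 h and 0.8 points in recovery (2.0% against 1.2%). The CTCF differences were then 0.8 points in unstressed cells and -4.8 points in recovery. By their pre-treatment tags, the recovery libraries used here as without triptolide were given 500 nM of it, against their titles.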

How the results depend on the processing

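Of 230 alternatives over 23 results, 200 gave the same direction and side of the threshold, or a count within 1.5 times, and 5 turned round. The exact tests between conditions could not reach p = 0.05, so for them the same means the same direction only, whatever the size. The CTCF end share difference at 1 h was counted as the same at equal list length, at -1.2 points against -11.3. With lists cut to equal length, CTCF end shares at 7.5 min minus no stress became 0.2 points, RAD21 end shares in recovery minus 1 h -0.27 points, ZNF genes losing CTCF 0 and new RAD21 genes with triptolide 11. At start sites alone the RAD21 ratio was -0.19 (exact permutation p = 0.412), past no threshold. Pol II regions with -log10 q of at least 1.3 gave a relative gap of 3.51 points, 64 genes lower without overlap, and 8 lower and 1 higher in limma; log2 (percent + 1) gave 2 higher. A 250 bp window gave 0 CTCF losses and a 5 kb window 10 RAD21 losses. The replicate block left 0 lower and 0 higher limma calls (unadjusted p under 0.05: 41 and 5); it moved no other call. Same-numbered libraries correlated at -0.05, 0.20 and 0.09 for RAD21 and 0.04 for Pol II.

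Leaving out 1 library gave 0 to 15 limma calls lower and 0 to 10 higher (with either unstressed library out, 0 adjusted calls but 76 and 96 lower, 8 and 6 higher at an unadjusted p under 0.05), 2 to 18 CTCF losses, 0 to 5 RAD21 losses, RAD21 recovery differences of -1.13 to 5.07 points in end share and -0.086 to 1.40 in log2 density. The causes were not tested. No read depth is known, exact permutation of 3 libraries against 3 cannot go below p = 0.1 and of 2 against 2 not below 0.33, and each triptolide state rests on 1 library.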
